A study of Sus scrofa with 92 samples.

Results

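The genes described here are the pig genes whose symbol is ZNF followed by a number. They were taken by their symbol from the deposited expression tables: 170 of 25322 gene identifiers qualified, and 11804 identifiers carried a symbol at all. RNA from pigs aged 60 days was sequenced in 92 libraries. There were 9 heart, 9 liver, 9 kidney, 9 ovary, 9 subcutaneous adipose, 10 spleen, 8 lung, 10 psoas major and 10 longissimus dorsi libraries, and 9 libraries made from a mixture of tissues whose composition is not given in the sources used here. Each library was a single breed: Berkshire, Hampshire, Landrace, Large White or Piétrain, which are of Western origin, or Bamei, Jinhua, Meishan, Rongchang or Tibetan wild boar, which are of Chinese origin. The Tibetan wild boar had only spleen and both muscles, and Rongchang had no lung. The labels name no treatment and no engineered allele. Breeds served as the replicates of a tissue. Nothing in the labels says how many animals stand behind a library, so the p-values measure the spread between breeds as sampled.

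Most of these genes encode proteins with tandem C2H2 fingers, small zinc-holding loops that each read a few bases of DNA. Many carry a KRAB domain, which recruits TRIM28 and through it the histone methyltransferase SETDB1 to silence chromatin, in particular at transposable elements. The name also covers proteins of other kinds, among them RNA-binding proteins (ZNF106, ZNF385A), a spindle assembly factor (ZNF207) and a LIM-domain protein of the actin cytoskeleton (ZNF185), so the name alone does not define a function. ZNF genes are transcription regulators of low abundance in most tissues, and many lie in clusters of related copies. Where reads fit several copies equally well, the values of close relatives are uncertain.

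Levels below are FPKM (fragments per kilobase of transcript, relative to all fragments mapped) divided by a median-ratio scaling factor per library, called scaled FPKM. Differences are on the log2(scaled FPKM + 1) scale, which understates the change of genes at low level. A gene was tested when at least 3 libraries reached 1 FPKM. By that filter 160 of the 170 ZNF genes were tested over the 83 single-tissue libraries, beside 17207 genes in all. The 10 left out were ZNF404, ZNF184, ZNF648, ZNF750, ZNF630, ZNF536, ZNF594, ZNF804A, ZNF2 and ZNF804B. No ZNF gene stayed at 0 in every library, and 7 never reached 1 FPKM. Read depth relative to the median library, estimated from the smallest values, ran from 0.718 to 1.41 (ovary 0.718 to 1.13, liver 0.978 to 1.32). The marker sum of each labelled tissue had its highest median in that tissue, for example 40737 scaled FPKM for liver markers in liver and 1370 for oocyte markers in ovary. Single libraries also held markers of other tissues: 1 adipose library had a skeletal muscle marker sum of 1753 (adipose median 55.7) and 1 liver library a neuron and glia sum of 181 (liver median 6.39).

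ZNF genes were expressed at a low level, and their median span between tissues was smaller than that of all genes. The median over the tested members of the mean level was 2.83 scaled FPKM, with quartiles of 1.57 and 5.51, against 5.73 over all tested genes. Of the 160 members, 17 (10.6%) had a mean above 10 scaled FPKM, compared with 35.5% of all genes. The median span between the highest and the lowest tissue class was 1.05 on the log2 scale for members and 1.73 for all genes. A span above 2 was found for 17 members (10.6%) and for 41.9% of all genes. This scale narrows the span of genes at low level, and members were not compared with other genes of equal level. All 160 members differed between tissues in limma's moderated F test with Benjamini-Hochberg adjustment, which called 99% of all genes, so the test of any difference did not separate the family from other genes. Over the 72 libraries of 8 tissues and 9 breeds, tissue accounted for a median of 76.4% of a member's sum of squares and breed for 5.55%; the medians over all genes were 82.7% and 4.23%.

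The members with the highest mean level were ZNF106, ZNF207, ZNF277, ZNF358, ZNF524, ZNF428, ZNF75D and ZNF768, in that order. ZNF106, an RNA-binding protein needed in neuromuscular tissue, stood apart. In psoas major its lowest, median and highest levels were 153, 231 and 366 scaled FPKM, followed by longissimus dorsi with 107, 202 and 241 and heart with 106, 132 and 173. In the other tissues its median was 4.0 to 11.2, so striated muscle and the other tissues did not overlap in any library. ZNF207, which loads the checkpoint protein BUB3 onto spindles, was nearly even by comparison, from a median of 31.5 in ovary to 58.9 in spleen. ZNF277 ranged only from 32.2 in kidney to 51.2 in adipose, and breed took 35.1% of its sum of squares against 32.5% for tissue. ZNF358, ZNF524, whose product binds telomeric repeats, and ZNF768 all had their highest medians in longissimus dorsi, at 58.0, 47.1 and 38.2 scaled FPKM. All 20 muscle libraries lay above every library of the other classes for these 3 genes, and the nearest libraries were heart for each.

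The family was shifted upward in ovary and downward in liver. The median level of the 170 members in a library was 3.09 to 3.51 scaled FPKM in the 9 ovaries (middle value 3.26) and 1.72 to 2.06 in the 9 livers (middle value 1.93). In heart, spleen, lung, kidney, adipose and both muscles the library medians lay between 1.93 and 2.82. Every ovary library therefore exceeded every other library, whereas the livers overlapped the lowest longissimus dorsi and adipose libraries. The median over all tested genes did not follow the same order: it was 4.40 in ovary, 4.41 in lung, 4.44 in kidney and 3.90 in liver. In libraries of whole tissue, fewer cells of a type and less RNA per cell cannot be told apart.

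**Figure D1:**
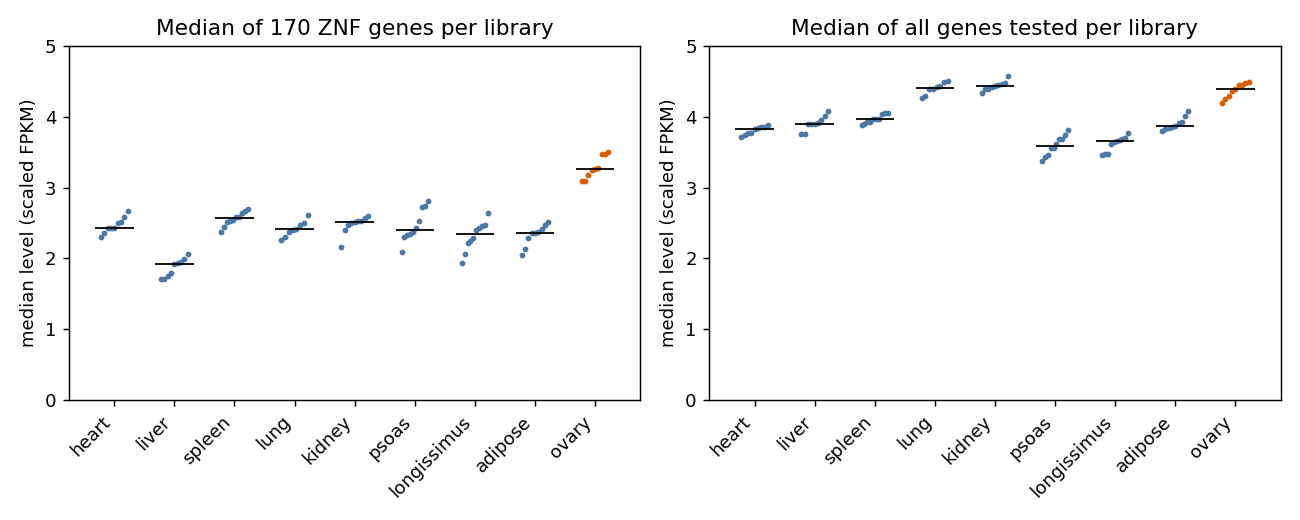
The left panel plots the median of the 170 ZNF genes in each of the 83 single-tissue libraries (scaled FPKM), by tissue; the right panel plots the median of all 17207 tested genes in the same libraries. Points are breeds, bars are medians over breeds, and ovary is in orange. The 9 ovaries sit between 3.09 and 3.51 on the left, above all other libraries, while on the right they lie among lung and kidney.

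Each tissue class was then compared with the mean of the other 7 classes, the muscles forming a single class and breed entering as a block. These 8 comparisons share their libraries and are not independent. In the muscle class both muscles of a breed entered as separate observations, although they deviated together (correlation 0.32 to 0.53). Standard errors and p-values of muscle, here and below, may therefore be too small. In ovary 92 members (57.5%) were higher and 35 (21.9%) lower at an adjusted p below 0.05; among all genes 40.6% were higher and 40.6% lower. In liver 19 members (11.9%) were higher and 103 (64.4%) lower, against 32.3% and 47.6% of all genes. The median difference of members was 0.28 in ovary, where that of all genes was -0.02, and -0.25 in liver, where that of all genes was -0.14. These counts depended on the scaling. With FPKM as deposited, 141 members were higher and 8 lower in ovary (63.8% and 20.8% of all genes), and with quantile normalization 75 and 61 (37.9% and 45.8%). In liver the corresponding counts were 4 and 150 (15.5% and 72.7% of all genes) and 26 and 92 (28% and 49.4%). The members' median minus that of all genes was 0.30 in ovary, at 0.16 to 0.38 over the 18 settings tried, and it stayed below 0 in liver, at -0.18 to -0.01.

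The other classes were closer to the background. Members higher and lower numbered 51 and 70 in heart (27.4% and 48.8% of all genes), 56 and 58 in spleen (31.8% and 48%), and 42 and 58 in lung (31.9% and 41.3%). They numbered 56 and 50 in kidney (31.7% and 43%), 56 and 68 in skeletal muscle (31.9% and 53.9%), and 36 and 70 in adipose (26.4% and 46.2%). With FPKM as deposited the balance moved to 22 and 114 in heart, 100 and 29 in spleen, 118 and 7 in lung, 84 and 26 in kidney, 12 and 140 in muscle and 33 and 75 in adipose. With quantile normalization it was 64 and 48 in heart, 62 and 46 in spleen, 22 and 96 in lung, 39 and 77 in kidney, 81 and 43 in muscle and 49 and 57 in adipose. The median over all genes itself shifted by more than 0.1 between scalings, for example to -0.65 in muscle and 0.50 in ovary with FPKM as deposited, and the counts of members moved with it. The shares of all genes under these other scalings are not given here, so these counts do not set members apart from other genes. Relative to the median of all genes, the members' median was above 0 under all 18 settings in heart (0.01 to 0.16), spleen (0.01 to 0.17) and kidney (0.04 to 0.12), as in ovary. In muscle it was 0.12 and in adipose 0.05, with values just below 0 only when no filter was applied. In lung it was 0.06 but -0.09 with quantile normalization.

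**Figure D2:**
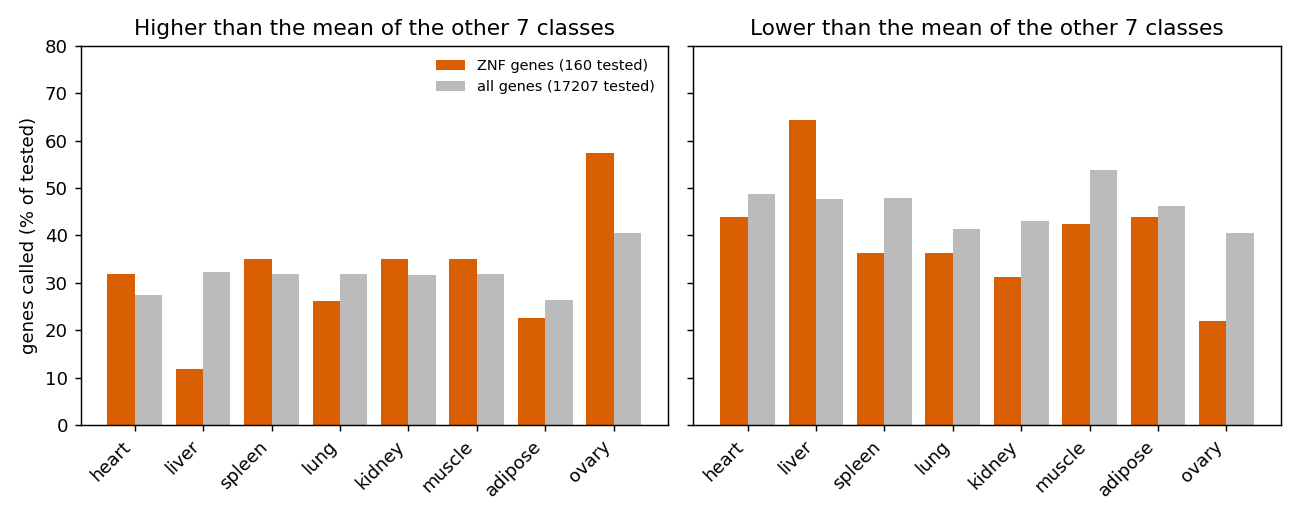
Bars give the percentage of tested genes called higher (left) or lower (right) in each tissue class than in the mean of the other 7 classes, for the 160 ZNF genes (orange) and for all 17207 genes (grey). Ovary stands out on the left, at 57.5% against 40.6%, and liver on the right, at 64.4% against 47.6%; with FPKM as deposited or quantile normalization the counts of every class change, and in heart, spleen, lung, kidney and muscle the larger direction switches under at least 1 of them.

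By highest class, 53 of the 160 members (33.1%) peaked in ovary, compared with 20.9% of all genes. Next were 29 in spleen (18.1% against 15.3%), 22 in skeletal muscle (13.8% against 13.1%) and 19 in heart (11.9% against 8.08%). There were 15 in kidney (9.4% against 11.3%), 9 in lung (5.6% against 8.21%), 8 in adipose (5% against 7.87%) and 5 in liver. Liver was the lowest class for 60 members (37.5%), against 20.4% of all genes, and the highest for 3.13%, against 15.3%. When a member had to differ from each of the other 7 classes, with no minimum size, 38 members were highest in ovary (14.6% of all genes were) and 24 lowest in liver (6.58%). Muscle was highest for 11 (7.8%), spleen for 10 (9%), heart for 5 (3.81%), kidney for 5 (6.25%), liver for 4 (10.3%), lung for 2 (4.07%) and adipose for 1 (4.14%). Without any overlap between libraries, 14 members were above all other tissues in ovary (5.78% of all genes) and 5 were below them in liver (1.62%): ZNF827, ZNF423, ZNF606, ZNF287 and 1 further member that did not pass the test against each class. In muscle there were 4 without overlap (2.05%), in spleen 2 above (2.86%) and 1 below (0.988%), in kidney 1 above (2.83%) and in heart 1 below (0.145%). ZNF827 had liver levels of 0.0689, 0.126 and 0.230 scaled FPKM where the lowest other library, a longissimus dorsi, had 0.401. ZNF287 was lowest in liver (0.205, 0.267 and 0.341) and highest in ovary (2.54, 3.65 and 5.85), without overlap at either end. The genes of this paragraph were picked after their values were seen.

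**Figure D3:**
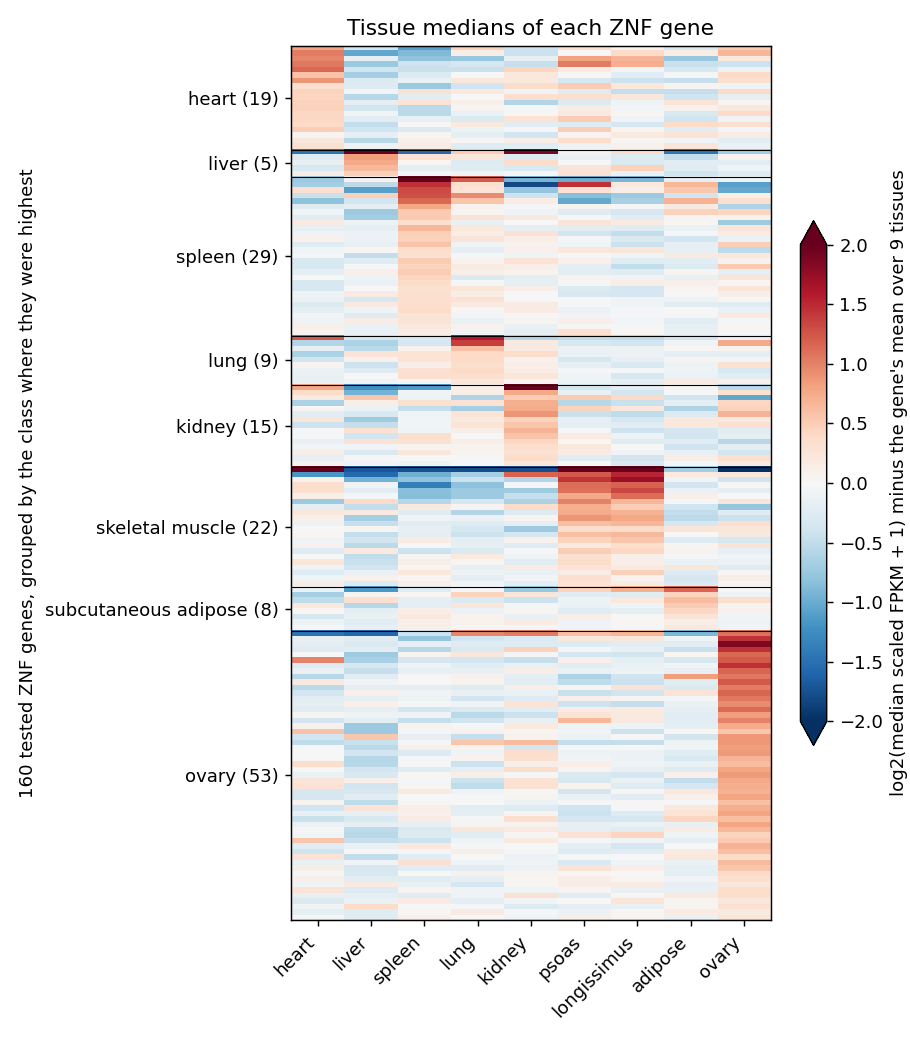
Each row is 1 of the 160 tested ZNF genes and each column a tissue; colour is log2(median scaled FPKM + 1) minus the gene's mean over the 9 tissues, cut at 2 on either side. Rows are grouped by the class where the gene was highest, with the count in brackets. The ovary block of 53 genes is the largest and the liver block of 5 the smallest.

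At a minimum log2 difference of 1 from every other class, 9 members were called high and 0 low. Of all genes 23% were called high and 2.14% low in some class; low calls made up 0.796% in liver, 0.57% in spleen, 0.465% in ovary, 0.134% in muscle, 0.093% in kidney, 0.0581% in heart, 0.0174% in adipose and 0.0116% in lung. No member was called high in heart, liver, lung or adipose, where 1.37%, 4.99%, 1.45% and 1.69% of all genes were. Of the 9, 6 were ovarian, which is 3.75% of the tested members, below the 5.48% of all genes called high in ovary. ZNF541, part of a histone deacetylase complex of meiotic germ cells, had a lowest, median and highest level of 1.02, 3.65 and 5.21 scaled FPKM in ovary and reached at most 0.254 in any other library, a heart. Its smallest difference from another class was 1.94 (adjusted p = 1.21e-34, limma). ZNF133, a KRAB repressor, ran from 2.73 to 8.46 in ovary with a median of 6.64, and its highest other library was a Tibetan wild boar psoas major at 2.55; the smallest difference was 1.42 (limma adjusted p = 5.26e-22). ZNF205 reached 11.9, 23.5 and 30.5 in ovary, and its lowest ovary fell below 1 longissimus dorsi library at 15.5. ZNF286A, another KRAB gene, had ovary levels of 4.31, 5.80 and 9.05 and stayed at or below 2.68 elsewhere. The remaining ovarian members, ZNF398 and ZNF7, were at a median of 8.54 and 15.6 scaled FPKM in ovary. ZNF398, which is known to interact with the oestrogen receptor, did not overlap with other tissues, while the lowest ovary for ZNF7 lay below a psoas major library at 11.3. In the same libraries the oocyte marker sum was 460 to 1911 scaled FPKM and the sum of ovarian somatic markers 149 to 379, with medians of at most 18.6 and 23.1 in the other tissues. The part of either cell type in these ZNF levels was not tested.

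The other called members each marked a different tissue, with 1 of 160 members (0.625%) called in each, below the share of all genes. ZNF704, a transcriptional repressor, was at 14.2, 18.3 and 22.5 scaled FPKM in kidney (2.68% of all genes were called high there), and its highest other library was a heart at 6.67. ZNF414 was at 14.6, 18.5 and 28.8 in spleen (2.91% of all genes), followed by lung with a median of 6.96 and a highest value of 9.36. In spleen and lung the leukocyte marker sums were also highest, with medians of 639 and 156 scaled FPKM, and their part in the level of ZNF414 was not tested. ZNF641 was at 5.36, 8.70 and 14.8 in the 20 muscle libraries (2.44% of all genes) and at most 2.77 elsewhere; with FPKM as deposited its smallest difference, 1.51 by median-ratio scaling, was 0.84 and below the size required.

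**Figure D4:**
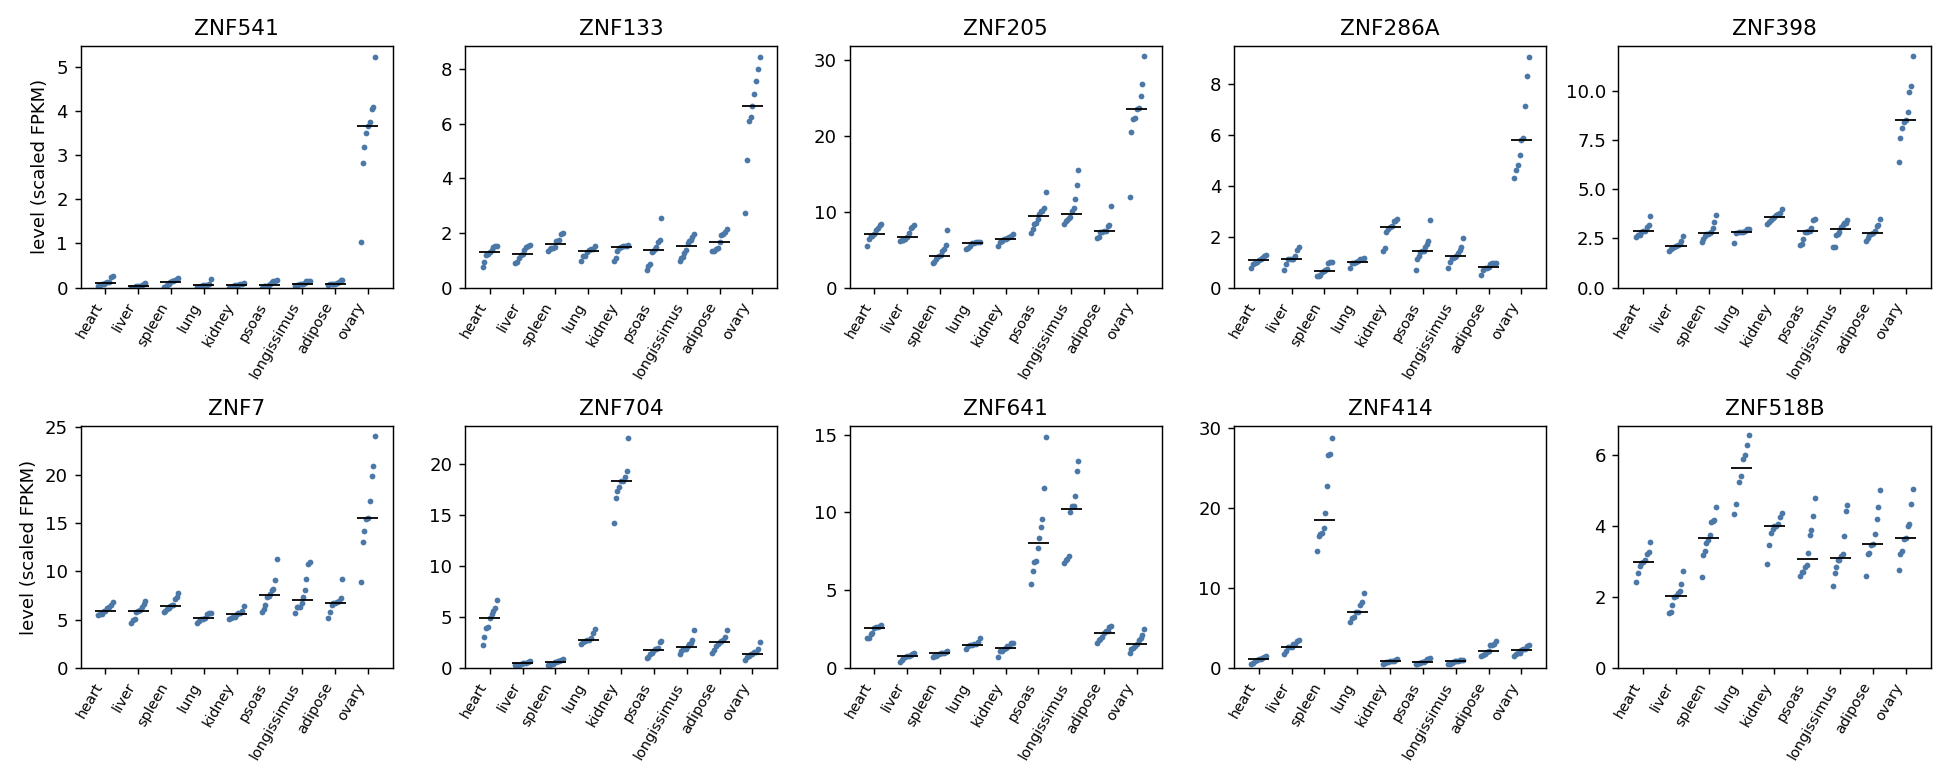
Each panel plots 1 gene, the 9 members called high in a tissue class and ZNF518B, with the level of every single-tissue library in scaled FPKM on a linear axis from 0; points are breeds and bars are medians. The ovary points of ZNF541, ZNF133, ZNF286A and ZNF398, the kidney points of ZNF704, the muscle points of ZNF641 and the spleen points of ZNF414 lie above all others of their panel. ZNF518B shows no such gap: its lung points, 4.34 to 6.57, overlap those of other tissues.

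ZNF518B, which is linked to the histone methyltransferase G9a, was lowest in liver and highest in lung. Its lowest, median and highest levels were 1.55, 2.04 and 2.73 scaled FPKM in liver, 2.43, 2.97 and 3.56 in heart, 2.60, 3.07 and 4.79 in psoas major, and 2.30, 3.11 and 4.60 in longissimus dorsi. They were 2.60, 3.50 and 5.02 in adipose, 2.78, 3.66 and 5.05 in ovary, 2.58, 3.67 and 4.55 in spleen, 2.94, 4.0 and 4.38 in kidney, and 4.34, 5.65 and 6.57 in lung. All neighbours in this order overlapped, and only liver and lung differed from each of the other 7 classes. Against the mean of the others, lung was higher by 0.59 ± 0.05 (SE; limma adjusted p = 1.12e-15) and liver lower, at -0.66 ± 0.05 (limma adjusted p = 4.42e-19). Heart was lower as well, at -0.20 (limma adjusted p = 0.000546). The small calls in kidney (0.13, limma adjusted p = 0.0213) and muscle (-0.09, limma adjusted p = 0.0305) changed sign with quantile normalization and were lost without breed as a block (limma adjusted p = 0.109 and 0.129), and spleen, adipose and ovary were not called. Breed took 27.4% of the sum of squares of ZNF518B, where the median over members was 5.55%.

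The members with the largest differences from the mean of the other classes came repeatedly from a few genes. ZNF106 was higher by 4.31 ± 0.07 in skeletal muscle and by 3.69 ± 0.09 in heart, in 9 of 9 breeds each. It was among the 3 lowest members in ovary (-1.72), spleen (-1.56), lung (-1.52) and kidney (-1.52), partly by construction, since the mean of the others then includes muscle and heart. The ZNF385 genes, which encode proteins that bind double-stranded RNA, had 4 different patterns. ZNF385A, which is also known as a p53 cofactor, had medians of 22.6 scaled FPKM in spleen, 22.6 in psoas major and 12.6 in adipose but 1.46 in kidney. ZNF385B was at 13.4 in liver and 9.78 in kidney, at a median of 0 in spleen, and at 0.0558 and 0.0671 in heart and adipose. ZNF385D was at 6.06 in kidney, 6.25 in psoas major and 7.96 in longissimus dorsi, and at 0.0574 in liver. ZNF385C was low throughout and highest in ovary, at 1.51.

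Several members known from development or cell identity had higher levels in some tissues, in part with overlap between libraries. ZNF365, a centrosomal protein of genome stability, was at a median of 4.03 scaled FPKM in lung and 2.91 in heart and at most 0.511 in the other tissues. ZNF503, a developmental repressor, was at 20.7 in lung, 21.6 in kidney and 22.8 in ovary but 2.77 in liver, 3.06 in heart and 4.97 in adipose. ZNF423, a factor that commits cells to the adipocyte fate, was highest in adipose, at 3.72, 5.94 and 8.86, with a difference of 1.45 ± 0.09 (limma adjusted p = 7.46e-25) from the other classes; 1 longissimus dorsi library reached 5.66. ZNF395 was at 20.8 in adipose and 24.6 in ovary, and ZNF521, which opposes ZNF423 in adipocyte precursors, was at 2.08 in adipose and highest in heart at 4.64. In spleen, ZNF366, a nuclear receptor corepressor of dendritic cells, was at 12.4, 13.5 and 16.4 and did not overlap with other tissues. ZNF831 had a median of 0.995 in spleen, 0.490 in ovary and 0.461 in lung and at most 0.140 elsewhere. ZNF217, a CoREST-associated oncoprotein, was at 14.9 in spleen and 2.58 in muscle. ZNF185 was higher in lung by 1.34 ± 0.10 (limma adjusted p = 5.46e-21), with a wide range of 1.17 to 7.59 between breeds. Only 4 of 8 lungs lay above its highest other library, an ovary at 4.57. In liver, ZNF281, known as a regulator of pluripotency, was at 14.5 and ZNF789 at 6.95, against medians of 6.78 and 3.24 over the libraries of the other tissues. Their lowest livers, at 9.74 and 5.62, lay below a spleen library at 11.8 and a kidney library at 6.50. ZNF383, highest in heart at 7.53, and ZNF32, ZNF710 and ZNF768, which were low in lung or adipose, in muscle, and in spleen and lung, completed the members named by the rule.

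Lists of members by known role, chosen with results of these data known and given as description only, moved as follows. Of 7 tested germ cell factors, 5 were higher and 1 lower in ovary, where 40.6% of all genes were higher and 40.6% lower. Of 5 lymphocyte and blood factors, 4 were higher and 0 lower in spleen (31.8% and 48% of all genes), and 4 and 0 in lung (31.9% and 41.3%). Of 15 RNA, ribosome and ubiquitin factors, 12 were higher and 2 lower in muscle (31.9% and 53.9% of all genes), with a median of 0.35 where that of all genes was -0.18. ZNF143, which activates small nuclear RNA promoters, is 1 of 18 promoter and chromatin factors. Of these, 12 were higher and 1 lower in spleen (31.8% and 48% of all genes). In liver 3 were higher and 13 lower (32.3% and 47.6% of all genes). ZNF143 itself was higher in muscle than in the mean of the other classes, by 0.62 ± 0.05 (limma adjusted p = 2.08e-20). Of 10 developmental regulators, heart had 2 higher and 8 lower (all genes: 27.4% and 48.8%). Of 5 adipocyte factors, 3 were higher and 2 lower in adipose (26.4% and 46.2% of all genes).

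The partners of KRAB zinc fingers are given for comparison. Of 41 genes listed for the corepressor and heterochromatin machinery, 31 were found by symbol (TRIM28 was not) and 29 were tested. In ovary 13 were higher and 12 lower (40.6% each way among all genes), in spleen 23 and 5 (31.8% and 48%), and in liver 6 and 17 (32.3% and 47.6%). The median difference of the list was 0.09 in ovary, 0.47 in spleen and -0.26 in liver, and that of all genes -0.02, -0.14 and -0.14. SETDB1 was among the 6 that were higher in liver, at a median of 36.2 scaled FPKM against 5.87 to 12.7 in the other tissues, a difference of 1.97 ± 0.04 from their mean (limma adjusted p = 1.58e-53). Its neighbour in the RefSeq gene order is CERS2, and whether reads of adjacent genes were shared was not tested. The SCAN zinc fingers, relatives with a dimerization domain, had 10 of 13 tested genes higher in ovary and 12 of 13 lower in liver, where 40.6% and 47.6% of all genes were. Among the SCAN genes PEG3, an imprinted gene, was highest in kidney at 13.1. For the next lists the shares of all genes are again 40.6% each way in ovary, and 32.3% higher and 47.6% lower in liver. Of 28 BTB zinc fingers, 8 were higher and 12 lower in ovary, with BCL6, a repressor, at 37.0 in psoas major and ZBTB32 at 3.83 in spleen. Of 17 tested genes of the KLF and SP list, 3 were higher and 9 lower in ovary and 2 higher and 11 lower in liver.

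Genes that lie next to each other were compared as a description. Of the 160 tested members, 142 were found by symbol on the RefSeq gene list of the later pig assembly, and they formed 19 pairs of direct neighbours, with a longest run of 4. Over the 8 class means, the correlation within neighbouring pairs had a median of 0.42 (range -0.47 to 0.70), and 17 of 19 were above 0. Over all 12720 pairs of members the median was 0.12, and 59.8% were above 0. The points share their libraries, and adjacent paralogs may share reads. The highest value was that of ZNF524 and ZNF865 (0.70), both highest in muscle, and the next ZNF213 and ZNF205 (0.66), both highest in ovary. ZNF146 and ZNF565 had the lowest, at -0.47. The pairs named here were picked after their values were seen.

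Psoas major, a loin muscle inside the abdomen, and longissimus dorsi, the long back muscle, were compared within breed. Levels in this fit are scaled over the 20 muscle libraries alone and so differ from those above. Of 125 tested members, 24 (19.2%) were higher and 10 (8%) lower in psoas major, against 12.7% and 15.1% of all genes. Without breed as a block the counts were 4 and 0, and with a filter of 5 FPKM, which tested fewer members, they were 5 and 6. Shares of all genes under these settings are not given here, so these counts do not set members apart from other genes. ZNF385A had the largest difference, from 9.70 to 20.8 scaled FPKM in psoas, with a median of 13.96, and at 4.08, 5.43 and 12.7 in longissimus, higher in 10 of 10 breeds by 0.95 ± 0.09 (limma adjusted p = 8.66e-05). ZNF529 (0.43), ZNF667 (0.41) and ZNF25 (0.35) were also higher in 10 of 10 breeds, and ZNF383 (0.32) in 9 of 10. ZNF280C (0.34, limma adjusted p = 0.0431, 8 of 10 breeds) was no longer called when any of Bamei, Berkshire, Jinhua, Landrace, Large White, Meishan, Piétrain or Rongchang was left out, with limma adjusted p between 0.0521 and 0.0893. Lower in psoas were ZNF358 (-0.40), ZNF408 (-0.30), ZNF687 (-0.30), ZNF217 (-0.26), ZNF521 (-0.24) and ZNF75D (-0.24), each in 9 of 10 breeds. The ranges of both muscles overlapped for each of these 12 genes. ZNF518B was not called.

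In the mixtures, most ZNF genes were below the mean of the 9 tissues of the same breed. Over the 8 breeds with a mixture and all 9 tissues, 106 of 160 members (66.2%) were lower and 2 (1.25%) higher, against 47.3% and 17.4% of all genes. In 83 members the mixture was lower in 8 of 8 breeds, as in 37.5% of all genes. ZNF106 had mixture levels of 12.2, 13.9 and 26.9 scaled FPKM where the mean of 9 tissues was 50.3, 66.7 and 83.4, a difference of -1.99 ± 0.11 (limma adjusted p = 6.65e-07). Against the mean of the log2 levels in place of the log2 mean it was -0.25 (limma adjusted p = 0.0961). ZNF641 (-0.88), ZNF524 (-0.73), ZNF358 (-0.66), ZNF521 (-0.66) and ZNF395 (-0.63) were lower in 8 of 8 breeds without overlap. The germ cell gene ZNF541 was at a median of 0.0562 in the mixtures and 0.438 in the mean of tissues. ZNF518B was lower by a small amount, at -0.21 ± 0.05 (limma adjusted p = 0.00219), in 8 of 8 breeds. ZNF385B was higher, with a lowest, median and highest level of 3.47, 5.60 and 7.30 against 2.17, 3.71 and 5.21, by 0.46 ± 0.06 (limma adjusted p = 7.03e-05). ZNF365 was higher by 0.42 ± 0.08 (limma adjusted p = 0.000858) but at -0.07 with quantile normalization. The mixtures also differed in their markers: the median sum of neuron and glia markers was 456 scaled FPKM against 11.1 in the mean of tissues, that of oocyte markers 7.29 against 162, of skeletal muscle markers 1221 against 7688, and of liver markers 7135 against 3924. Their part in the ZNF differences was not tested.

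**Figure D5:**
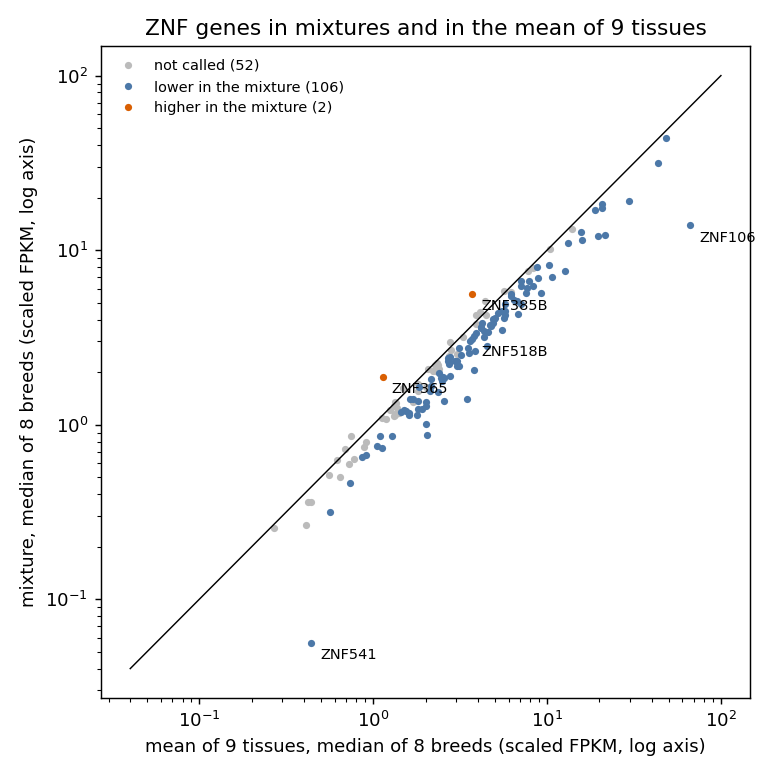
Each point is 1 of the 160 ZNF genes, with the mean of the 9 tissues on the x axis and the mixture on the y axis, both as medians over 8 breeds in scaled FPKM on log axes; the line marks equal levels. Colours give the call: 106 genes lower in the mixture in blue, 2 higher in orange, 52 not called in grey. Most points fall below the line, among them ZNF106 and ZNF541; ZNF365 falls to the other side with quantile normalization.

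For breed origin, each breed's log2 levels were averaged over its 8 tissues other than lung, and 4 Chinese were set against 5 Western breeds. No member was called, with 5 higher and 6 lower in the Chinese breeds at an unadjusted limma p below 0.05 (3.12% and 3.75% of members, 4.18% and 4.14% of all genes). After adjustment 0.165% of all genes were called higher and 0.147% lower. The 3 members with the smallest p were ZNF185, ZNF133 and ZNF511. For ZNF185 the mean log2 level was 0.82 to 1.39 in the Chinese breeds and 0.12 to 0.81 in the Western breeds, a difference of 0.70 ± 0.17 (limma adjusted p = 0.214). The closest breeds were Rongchang at 0.82 and Large White at 0.81. Breed took 51.2% of the sum of squares of ZNF185 and tissue 36.7%. ZNF185 and ZNF277 were the 2 of 160 members where breed took more, as it did in 433 of 16996 genes in all. Within tissues, where levels are scaled over the libraries of that tissue alone, ZNF185 was at 9.42, 9.86 and 11.2 scaled FPKM in the 3 Chinese lungs and 1.75 to 6.82 in the 5 Western lungs. It was at 1.96 to 2.91 against 0.299 to 1.51 in kidney, and at 1.38 to 2.16 against 0.0182 to 0.964 in adipose, again without overlap (2.62%, 1.52% and 1.06% of all genes had Chinese above Western breeds in lung, kidney and adipose). None of these passed the adjustment (limma adjusted p = 0.348, 0.182 and 0.300). In the other tested tissues its ranges overlapped: 0.491 to 2.10 against 0.0106 to 1.69 in spleen (limma adjusted p = 0.999) and 2.46 to 7.58 against 0.821 to 4.05 in ovary (limma adjusted p = 0.661). ZNF133 was lower in the Chinese breeds, by -0.22 ± 0.06 with no overlap (limma adjusted p = 0.269), and ZNF511 by -0.39 ± 0.11 with overlap (limma adjusted p = 0.319). ZNF518B differed by -0.08 ± 0.10 (limma adjusted p = 0.931). In lung, which that average leaves out, its Chinese breeds all lay below the Western breeds, by -0.32 ± 0.09 (limma adjusted p = 0.354). Of all genes 2.55% did so in lung. Over tissues 2 members lay entirely above and 4 entirely below the Western breeds, as did 1.52% and 1.77% of all genes.

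Within a single tissue no member was called by origin in any of the 9 tissues (limma, Benjamini-Hochberg). Of all genes, 0.123% were called higher and 0.0987% lower in heart, 0.0678% each way in liver, 0.0428% and 0.121% in lung, 0.0738% and 0.148% in kidney, and 0.00869% and 0.0174% in psoas major. The shares were 0.0346% and 0.00864% in longissimus dorsi, 0.0232% and 0.0696% in adipose, 0.02% and 0.0535% in ovary, and 0% in spleen. Members with an unadjusted limma p below 0.05 numbered from 2 of 104 in liver and 2 of 120 in psoas major to 12 of 152 in lung. The shares of all genes at that p were 5.73% in liver, 4.75% in psoas major, 7.99% in lung, 7.48% in heart, 5.08% in spleen, 8.97% in kidney, 4.99% in longissimus dorsi, 8.5% in adipose and 6.09% in ovary, above the share of members in each tissue. The interaction of tissue and origin called 1 member, ZNF385C (limma adjusted p = 0.0347), where 2.43% of all genes were called. The interaction was fitted on levels scaled over the tissues together, whereas the levels that follow are scaled within each tissue alone. They compare origins but not tissues, and they differ from the levels of ZNF385C given above. Its Chinese and Western medians were 3.12 and 2.03 scaled FPKM in ovary, 1.12 and 0.734 in kidney, and 0.272 and 0.161 in adipose. In heart, liver, spleen and both muscles all its values were below 0.6. Leaving out 1 breed changed this count to between 0 and 5 members: it was 0 without Berkshire, Jinhua, Large White, Piétrain or Rongchang, 2 without Bamei and 5 without Meishan. It was also 0 with a pseudocount of 0.1 or a filter of 5 FPKM. Shares of all genes under these settings are not given here, so these counts do not set members apart from other genes.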

How the data were processed

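The deposited tables give FPKM per Ensembl gene identifier and library. Per the submitters' processing notes, TopHat and Cufflinks 2.2.1 with the build Sscrofa10.2 were used to make them; annotation release and options are not given in the sources used here. Symbols came from the name list supplied with the data, and RefSeq was used only for gene order. Libraries were scaled by median ratios within each fit, genes kept at 1 FPKM in at least 3 libraries, log2(scaled FPKM + 1) fitted with limma 3.58.1 (trend and robust; R 4.3.3), and p-values adjusted over all genes kept, called below 0.05. Psoas major and longissimus dorsi formed 1 of 8 tissue classes. Breed was a block in tissue comparisons: same-breed muscles deviated together in 10 of 10 breeds (correlation 0.32 to 0.53). Over all 252 same-breed pairs of tissues, lung left out, the correlation was weaker, with a median of 0.18 (range -0.10 to 0.52). FPKM carries no read counts, so no counting intervals were computed. Figures were drawn with matplotlib from these values. The scripts were run on simulated data with independent noise, without scaling, and with the mean of log2 levels as the mixture reference. The scaling, the pairing within breeds and the mixture reference used here were therefore not tested by it. Members and lists were chosen with earlier results of these data known. Named genes: ZNF518B; the 8 highest means; up to 4 members per class called high, and 3 per direction against the other classes; up to 6 per direction in the paired comparisons; the role lists; the called genes of other lists were limited to a few. No sequences or coordinates are given, because no genome of the files' build was used here. Alternatives were other scalings, pseudocounts, filters, moderation, blocking and leaving out each breed.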

Additional observations from a re-analysis of the deposited data

Results flagged for a closer look

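Among 163 groups of 8 to 10 libraries examined for the named genes and the family median, 11 had 1 library far from the others. Chance flags about 1 in 20, or 8.15 of these. In adipose, the Berkshire library was high for ZNF205 (10.8 scaled FPKM, others 6.48 to 8.19) and for ZNF503 (8.99, others 2.74 to 5.84), the Large White library low for ZNF395 (14.9, others 19.7 to 24.0) and the Rongchang library high for ZNF32 (6.95, others 4.54 to 5.60). In lung, Bamei was low for ZNF398 (2.29, others 2.76 to 3.01) and high for ZNF541 (0.199, others 0.0142 to 0.0744). In psoas major, Rongchang was high for ZNF217 (5.49, others 1.63 to 3.11) and Berkshire high for ZNF529 (5.62, others 1.60 to 3.44). In kidney, Hampshire was high for ZNF385D (11.3, others 4.45 to 7.90) and had the lowest family median (2.17, others 2.40 to 2.60). The Large White spleen was the only spleen with ZNF385B above 0 (0.0307). The tissue profile of ZNF385C differed between Chinese and Western breeds (limma adjusted p of the interaction = 0.0347).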

How the results depend on the processing

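With FPKM as deposited, 18 members were called high in a class; higher and lower members numbered 22 and 114 in heart, 100 and 29 in spleen, 118 and 7 in lung, 12 and 140 in muscle, and 141 and 8 in ovary, with 4 higher in liver and 26 lower in kidney. Quantile normalization gave 22 and 96 in lung, 77 lower in kidney, 43 lower in muscle, 61 lower in ovary and 1 higher in the mixtures, and turned ZNF365 in the mixtures (-0.067) and ZNF518B in kidney (-0.018) and muscle (0.051). A pseudocount of 0.1 gave 15 members called high and 4 low in a class and 0 for the profile by origin. No filter gave 4 higher in the mixtures. A filter of 5 FPKM gave 32 higher in heart, 66 lower in liver, 31 higher in spleen, 26 higher in lung, 46 lower in adipose, 5 higher and 6 lower in psoas major, and 0 for the profile by origin; fewer members were tested. Without a replicate block for breed, 4 were higher and 0 lower in psoas major; the pairing changed no other count by over 1.5 times. No minimum log2 difference gave 76 high and 44 low in a class (60% and 24.3% of all genes). A minimum of 2 gave 0 high, and the mean of log2 levels as reference gave 8 higher in the mixtures. The other counts given here are of members alone, without the shares of all genes. Leaving out 1 breed gave 0 to 5 members for the profile by origin and 6 to 11 lower in psoas major, 6 without Jinhua. At 0.5 FPKM a median of 148 members were detected. The causes were not tested. Values near 0 rest on few reads, so differences among members below 1 FPKM are imprecise.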
